A study of Mus musculus with 15 samples.

Results

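Of the genes that hold back mTORC1 (mechanistic target of rapamycin complex 1) and cap-dependent translation, 6 were followed here through all of their probe sets on an Affymetrix mouse array. They were Eif4ebp1 and Eif4ebp2, Tsc1 and Tsc2, Ddit4 and Sesn2. The members were taken by the gene symbol of the platform annotation, which gave 14 of the 22626 probe sets tested, 3 for Eif4ebp1, 5 for Eif4ebp2, 2 for Tsc1, 1 for Tsc2, 1 for Ddit4 and 2 for Sesn2. All 14 were measured on every array, and no filter on low values was used. The cells were primary neural stem cells from female donors 6 weeks old, labelled strain C57/B16, and were grown as neurospheres, which are free-floating clusters of such cells. RNA was collected 48 h after the start of treatment. The 4 groups were polysomal RNA of cultures given CD95L-T4 (n = 3 arrays), polysomal RNA of control cultures (n = 4), total RNA of cultures given CD95L-T4 (n = 4) and total RNA of control cultures (n = 4). CD95L-T4 is a trimeric form of the ligand of CD95 (Fas), a death receptor that also has signalling roles outside cell death, and polysomal RNA is mRNA carried by several ribosomes at once. The labels call the replicates biological, but they do not say what the control cultures received or whether a replicate is 1 animal or a pool.

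mTORC1 is the kinase complex that couples nutrients and growth factors to protein synthesis. Its best known substrates in translation are the 4E-binding proteins, which in their unphosphorylated form hold the cap-binding protein eIF4E away from eIF4G, so that the ribosome is not brought to the 5′ cap. Further upstream, the TSC complex, made of the proteins of Tsc1 and Tsc2 with a further subunit, turns off the small GTPase Rheb, the direct activator of mTORC1. Ddit4, also called REDD1, acts through the TSC complex and is induced by low oxygen, glucocorticoids and other stress, and Sesn2 is a leucine sensor that acts through the GATOR complexes on the Rag GTPases. In neural stem cells, mTORC1 activity is known for its bearing on quiescence, growth and differentiation. Phosphorylation and binding, through which the 4E-binding proteins and the TSC complex are controlled, are not measured by an mRNA array.

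All values are log2 intensities as the authors normalised and deposited them, so that a positive difference of 1 unit is a doubling. Differences are given as CD95L-T4 minus control or as polysomal minus total, with limma's moderated standard error (SE), and p-values were adjusted by the Benjamini-Hochberg method over all 22626 probe sets, with a threshold of 0.05. Over all probe sets the Pearson correlation was 0.994 to 0.998 between arrays of the same group and 0.968 to 0.978 between a polysomal and a total array. Of 12 neural stem cell markers measured, 11 lay above the median of all probe sets, whereas 0 of 9 microglial, 0 of 6 endothelial and 0 of 7 fibroblast markers did. Neuronal (4 of 11), astrocytic (3 of 7) and oligodendrocyte markers (2 of 8) were in part above it. CD95L-T4 polysomal replicate 2 stood apart in the transcripts added as poly-A controls, at 9.86 over 24 probe sets, against 8.18 and 8.32 in the other CD95L-T4 polysomal arrays and 8.45 to 9.03 in the control polysomal arrays. Results that rest on this array are given with and without it. Per the labels, polysomal RNA was prepared by phenol-chloroform extraction and total RNA with a column kit, so that fraction and extraction cannot be told apart. The array medians were 6.92 to 6.98 in total RNA and 6.83 to 6.88 in polysomal RNA, and the normalisation method is not given. With medians this close, a polysomal minus total difference is read as placing a gene relative to other mRNAs. It does not give the share of its transcripts on polysomes. A fall in the number of cells of one kind and a fall in RNA per cell cannot be told apart in such bulk samples.

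The plain answer for CD95L-T4 was that none of the 14 probe sets passed the threshold in either fraction. limma called 0 of 14 in polysomal RNA, 0 of 14 in total RNA and 0 of 14 in the interaction, which is the treatment effect in polysomal RNA minus that in total RNA. The background over all probe sets was 0% called in each of these comparisons. At an unadjusted p under 0.05, there were 2 of the 14 in polysomal RNA (background 9.65%), 0 in total RNA (background 3.74%) and 1 in the interaction (background 4.38%). Both in polysomal RNA belonged to Eif4ebp1, and the one in the interaction was Ddit4. In total RNA CD95L-T4 and control arrays overlapped for all 14, where 2.52% of all probe sets did not overlap. The median difference of the 14 was 0.06 in polysomal RNA, against 0.005 over all probe sets, and -0.03 in total RNA, against 0.01.

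The arrays nevertheless limited the size of most effects. In polysomal RNA the 95% confidence interval of the treatment effect lay within a 1.5-fold change either way for 12 of the 14 probe sets, the exceptions being Ddit4 and the Eif4ebp2 probe set 1417084_at. For total RNA it did so for 13, Ddit4 being the exception. Over all probe sets the interval lay within that range for 95.9% in polysomal and 98.2% in total RNA.

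**Figure D1:**
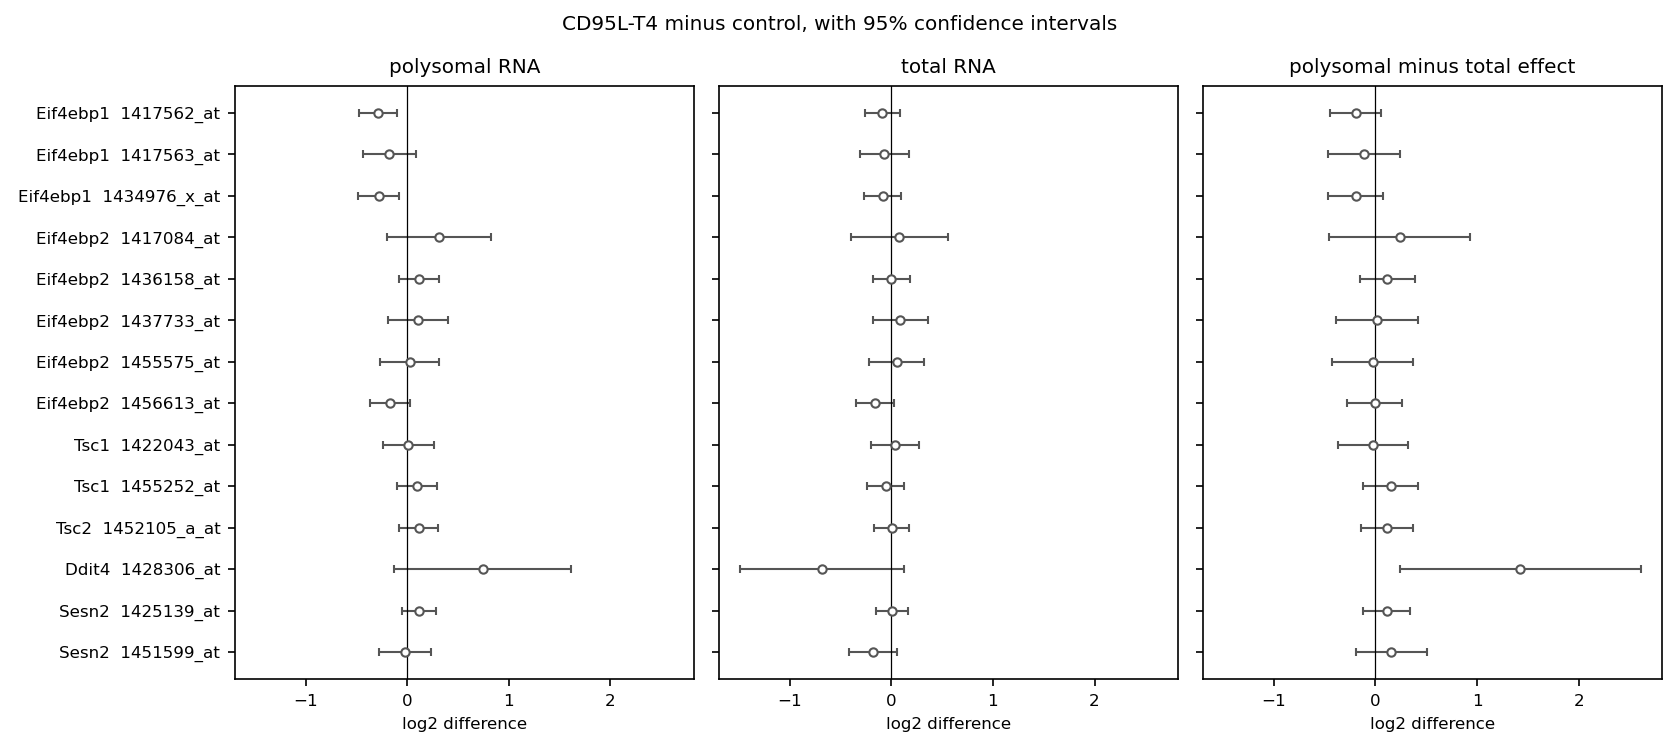
Differences between CD95L-T4 and control cultures in log2 for the 14 probe sets, in polysomal RNA, in total RNA and as the polysomal minus the total effect (the interaction), as points with 95% confidence intervals from the limma fit. Most intervals are narrow and cross 0, those of Ddit4 are the widest, and those of 2 Eif4ebp1 probe sets lie below 0 in polysomal RNA without passing the adjusted threshold.

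Most of the 14 probe sets differed between the RNA fractions. Of all 14, called or not, 3 belonged to Eif4ebp1 and 5 to Eif4ebp2. By gene, only Eif4ebp1 and Tsc2 were called in the same direction by all their probe sets in both cultures. Polysomal minus total RNA passed the threshold for 11 of 14 probe sets in CD95L-T4 cultures (9 higher, 2 lower in polysomal RNA) and for 10 of 14 in control cultures (8 higher, 2 lower). The background was 51.3% called in CD95L-T4 cultures (26.7% higher, 24.6% lower) and 56.1% in control cultures (29.8% higher, 26.3% lower). Polysomal and total arrays did not overlap for 8 of the 14 in CD95L-T4 cultures, with a background of 47.7%, and for 9 in control cultures, with a background of 54.6%. All 3 probe sets of Eif4ebp1, 3 of the 5 of Eif4ebp2 and 1 each of Tsc1 and Sesn2 were higher in polysomal RNA of both cultures, though 1 of those of Eif4ebp2 and both of Tsc1 lost the CD95L-T4 call when certain single arrays were left out, and Ddit4 was called higher in CD95L-T4 cultures. Tsc2 and the other Tsc1 probe set were lower in both. The median over the 14 was 0.48 in CD95L-T4 and 0.41 in control cultures, against 0.04 and 0.06 over all probe sets.

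**Figure D2:**
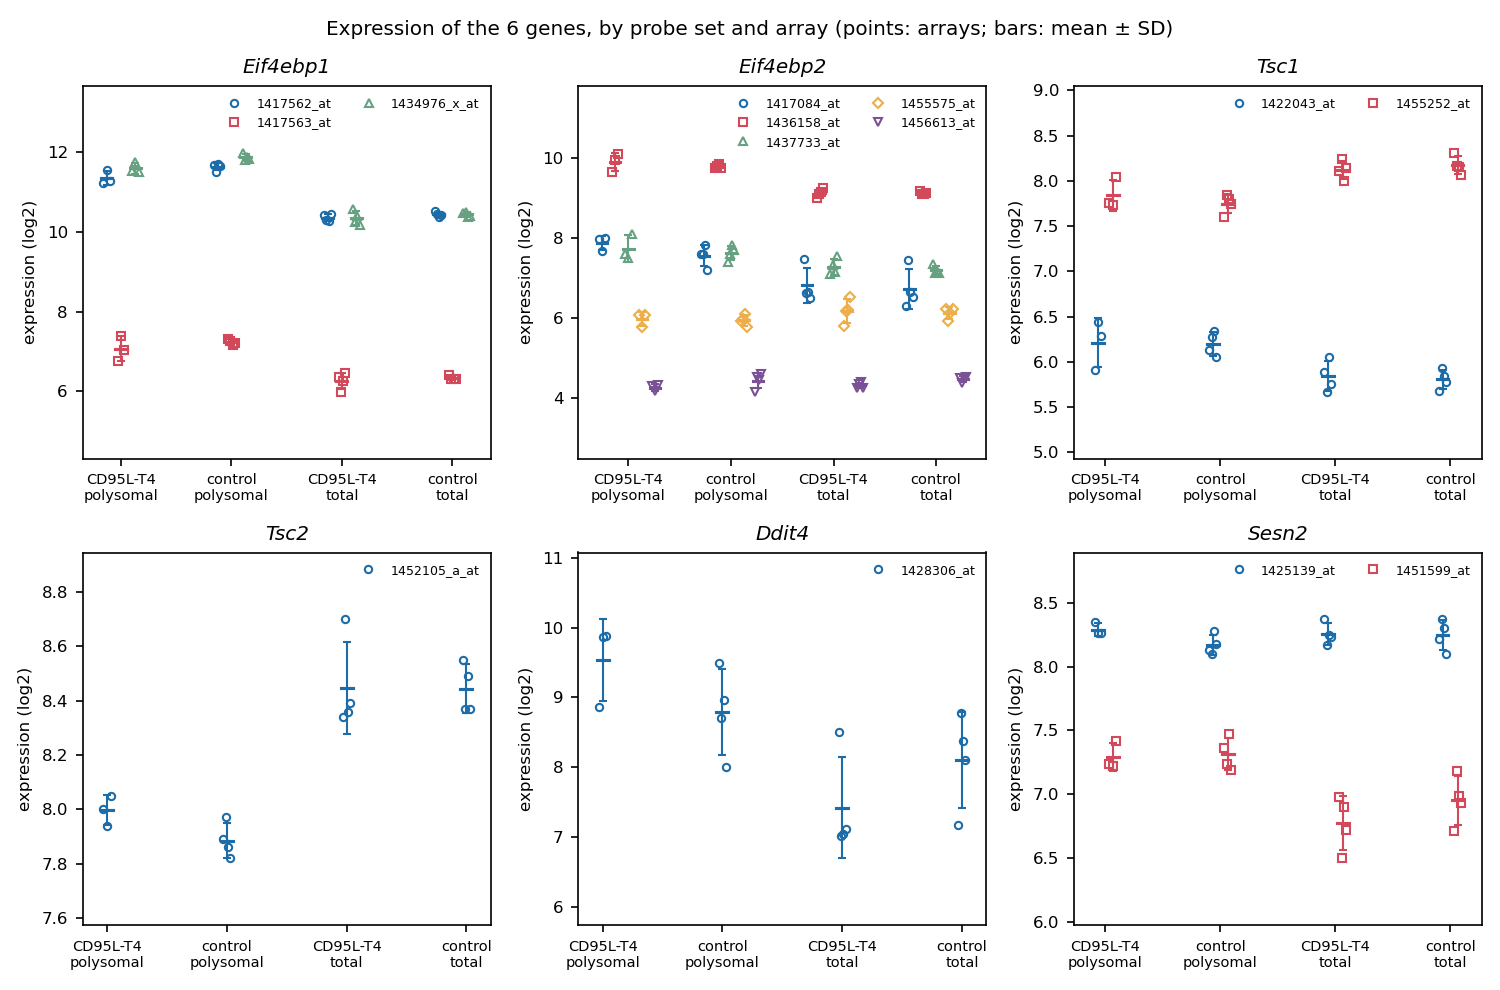
Log2 expression of the 14 probe sets on each of the 15 arrays, grouped by RNA fraction and culture, with points for arrays and bars for the mean ± SD. The Eif4ebp1 arrays separate by fraction with little scatter, Tsc2 separates in the opposite direction, and Ddit4 scatters widely within every group.

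Eif4ebp1 encodes 4E-BP1, the eIF4E-binding repressor that mTORC1 phosphorylates. Its probe set 1417562_at read 11.22, 11.55 and 11.27 in CD95L-T4 polysomal arrays, against 11.68, 11.51, 11.70 and 11.64 in control polysomal arrays. Replicate 2 of the CD95L-T4 group lay within the control range and the other 2 below it. The difference was -0.29 ± 0.09 (SE), a 1.22-fold lower level, with an adjusted p of 0.473.

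The probe set 1434976_x_at read 11.53, 11.75 and 11.50 in CD95L-T4 polysomal arrays, against 11.98, 11.81, 11.88 and 11.82 in control polysomal arrays. Here every CD95L-T4 array lay below every control array, the one case among the 14 without overlap in polysomal RNA, where 5.42% of all probe sets did not overlap. The difference was -0.28 ± 0.09 (adjusted p = 0.474). The suffix _x_at marks a probe set that can also bind other transcripts. The dimmer probe set 1417563_at, which cites the same source sequence as 1417562_at, read 6.77, 7.39 and 7.03 in CD95L-T4 and 7.32, 7.27, 7.16 and 7.21 in control polysomal arrays. These groups overlapped, with replicate 2 of CD95L-T4 the highest of all, and the difference was -0.18 ± 0.12 (adjusted p = 0.652).

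Without CD95L-T4 polysomal replicate 2, whose poly-A controls stood apart, only replicates 1 and 3 remained in that group. Both brighter Eif4ebp1 probe sets then passed the threshold. The difference was then -0.39 ± 0.08 (adjusted p = 0.0154) for 1417562_at, -0.36 ± 0.10 (adjusted p = 0.0451) for 1434976_x_at and -0.34 ± 0.11 (adjusted p = 0.0829) for 1417563_at. The first 2 were the only ones of the 14 called, both lower, in a fit that called 6.13% of all probe sets and 2.96% as lower. The array left out was also the CD95L-T4 polysomal array most like the controls. On the second axis of a principal component analysis of all arrays it lay at 14.4. Control polysomal arrays lay at -6.5 to 17.0 there, and CD95L-T4 polysomal replicates 1 and 3 at -14.1 and -21.8. The part of the poly-A controls in this result was not tested. In total RNA the 3 Eif4ebp1 differences were -0.09, -0.07 and -0.09, with an adjusted p of 0.997 each, and the interaction was -0.20, -0.11 and -0.19, with adjusted p-values of 0.897 to 0.931. Without CD95L-T4 polysomal replicate 2 the interaction was -0.30 (adjusted p = 0.195) for 1417562_at, -0.27 (adjusted p = 0.386) for 1417563_at and -0.27 (adjusted p = 0.317) for 1434976_x_at. Neither fit called a difference between the treatment effects in polysomal and in total RNA.

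Between fractions all 3 Eif4ebp1 probe sets were higher in polysomal RNA of both cultures. In total RNA 1417562_at read 10.41, 10.29, 10.26 and 10.44 in CD95L-T4 and 10.52, 10.45, 10.36 and 10.43 in control arrays, so that each polysomal array lay above each total array of either culture. Polysomal minus total was 1.0 ± 0.09 in CD95L-T4 cultures, a 2.0-fold higher level (adjusted p = 4.64e-08), and 1.19 ± 0.08 in control cultures, 2.29-fold higher (adjusted p = 1.5e-09). For 1434976_x_at it was 1.24 and 1.44, or 2.37-fold and 2.71-fold (adjusted p = 1.07e-08 and 5.22e-10), and for 1417563_at it was 0.80 and 0.91 (adjusted p = 2.79e-05 and 2.24e-06).

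Eif4ebp2 encodes 4E-BP2, the 4E-binding protein best known from the nervous system. Its brightest probe set, 1436158_at, read 9.64, 9.96 and 10.09 in CD95L-T4 polysomal and 9.75, 9.79, 9.84 and 9.74 in control polysomal arrays. In total RNA it read 8.99, 9.10, 9.16 and 9.24 in CD95L-T4 and 9.17, 9.09, 9.11 and 9.12 in control arrays. Cultures overlapped within each fraction, and the fractions did not overlap. CD95L-T4 minus control was 0.12 ± 0.09 in polysomal (adjusted p = 0.695) and 0.00 ± 0.09 in total RNA. Polysomal minus total was 0.77 ± 0.09 in CD95L-T4 cultures (adjusted p = 1.65e-06) and 0.66 ± 0.09 in control cultures (adjusted p = 3.69e-06).

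The other Eif4ebp2 probe sets did not move as one. For 1417084_at the fraction difference was 1.07 ± 0.24 in CD95L-T4 (adjusted p = 0.00122) and 0.83 ± 0.22 in control cultures (adjusted p = 0.00442), and for 1437733_at it was 0.45 and 0.44 (adjusted p = 0.0116 and 0.00828). The call of 1437733_at in CD95L-T4 cultures was lost without CD95L-T4 polysomal replicate 3, at 0.26 (adjusted p = 0.105). Neither 1455575_at, at -0.20 and -0.18, nor 1456613_at, at -0.05 and -0.04, passed the threshold in CD95L-T4 or in control cultures. These were the dimmest of the gene, 1456613_at at 4.17 to 4.60 over all arrays, and 1455575_at cites the same source sequence as 1436158_at, which was higher in polysomal RNA.

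In total RNA 1417084_at read 7.47, 6.63, 6.65 and 6.51 in CD95L-T4 and 6.31, 7.45, 6.65 and 6.53 in control arrays. A single array of each culture, CD95L-T4 replicate 1 and control replicate 2, stood well above the other 3 of its group. The spread of this probe set within groups was the highest after that of Ddit4 among the 14, rank 148 of 22626. Its treatment effect was 0.32 ± 0.24 in polysomal RNA (adjusted p = 0.682) and 0.08 ± 0.22 in total RNA (adjusted p = 0.997).

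Tsc2 encodes tuberin, the GTPase-activating subunit of the TSC complex. Its probe set 1452105_a_at, whose suffix marks probes shared by several transcripts of 1 gene, read 8.0, 7.94 and 8.05 in CD95L-T4 polysomal arrays, against 8.34, 8.70, 8.36 and 8.39 in CD95L-T4 total arrays. In control cultures it read 7.89, 7.97, 7.86 and 7.82 in polysomal and 8.55, 8.37, 8.49 and 8.37 in total arrays. Every polysomal array was below every total array. Polysomal minus total was -0.45 ± 0.09 in CD95L-T4 cultures, 1.37-fold lower (adjusted p = 0.000343), and -0.56 ± 0.08 in control cultures, 1.47-fold lower (adjusted p = 1.41e-05). CD95L-T4 minus control was 0.11 ± 0.09 in polysomal (adjusted p = 0.694) and 0.003 ± 0.08 in total RNA (adjusted p = 0.997).

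Tsc1 encodes hamartin, which stabilises tuberin, and its 2 probe sets went in opposite directions between fractions. The brighter, 1455252_at, read 7.76, 7.73 and 8.04 in CD95L-T4 polysomal arrays, against 8.11, 8.24, 8.0 and 8.14 in CD95L-T4 total arrays. In control cultures it read 7.60, 7.84, 7.80 and 7.75 in polysomal and 8.31, 8.17, 8.15 and 8.07 in total arrays. The control arrays did not overlap, whereas CD95L-T4 polysomal replicate 3 reached into the total range. The difference was -0.28 ± 0.09 in CD95L-T4 (adjusted p = 0.0181) and -0.43 ± 0.09 in control cultures (adjusted p = 0.00038).

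The probe set 1422043_at of Tsc1 was instead higher in polysomal RNA, by 0.37 ± 0.12 in CD95L-T4 (adjusted p = 0.0159) and 0.39 ± 0.11 in control cultures (adjusted p = 0.00621). Without CD95L-T4 polysomal replicate 2 neither Tsc1 probe set passed in CD95L-T4 cultures, where 9 of the 14 did and 49.6% of all probe sets, at -0.22 (adjusted p = 0.0817) for 1455252_at and 0.25 (adjusted p = 0.108) for 1422043_at. The CD95L-T4 calls were also lost without CD95L-T4 total replicate 2, with an adjusted p of 0.0561 for 1455252_at and 0.0519 for 1422043_at. Leaving out CD95L-T4 polysomal replicate 1 ended that of 1455252_at (adjusted p = 0.0733), and leaving out replicate 3 ended that of 1422043_at (adjusted p = 0.0587). Since the probe sets oppose each other, no direction between fractions is given for Tsc1 as a gene. Its treatment effects were between -0.05 and 0.10 in both fractions, with adjusted p-values of 0.754 or more.

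**Figure D3:**
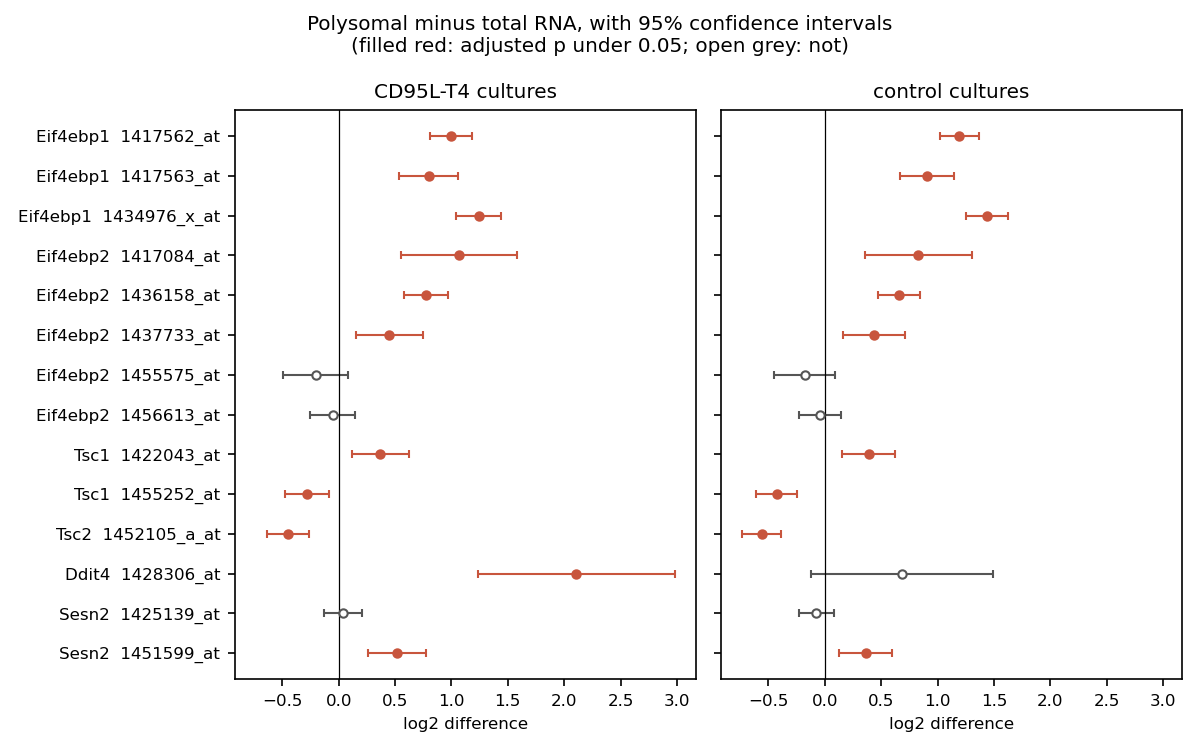
Polysomal minus total RNA in log2 for the 14 probe sets in CD95L-T4 and in control cultures, with 95% confidence intervals from the limma fit and filled points where the adjusted p passed the threshold. Eif4ebp1 lies between 0.80 and 1.44, Tsc2 lies below 0 in both cultures, the Tsc1 probe sets lie on opposite sides of 0, and Ddit4 reaches 2.11 in CD95L-T4 cultures.

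Ddit4 and Sesn2 are the stress-inducible brakes, and their promoters are shown here because both genes are known to be induced by stress at the level of transcription. The 250 bases before each start come from RefSeq (GRCm38.p6), both genes lying on the minus strand, and are written 5′ to 3′ in the direction of the gene. Ddit4 is taken from chr10:59951771-59952020 and Sesn2 from chr4:132510457-132510706. Capitals mark ACGTG and GCGTG, the forms of the core of the hypoxia response element, the second of which is also the core of the xenobiotic response element, on the gene's strand or as CACGT and CACGC on the other.
Ddit4: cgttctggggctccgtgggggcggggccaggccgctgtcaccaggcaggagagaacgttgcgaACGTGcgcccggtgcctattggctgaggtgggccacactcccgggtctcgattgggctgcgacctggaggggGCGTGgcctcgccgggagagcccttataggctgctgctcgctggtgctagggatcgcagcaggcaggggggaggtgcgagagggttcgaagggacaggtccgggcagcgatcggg
Sesn2: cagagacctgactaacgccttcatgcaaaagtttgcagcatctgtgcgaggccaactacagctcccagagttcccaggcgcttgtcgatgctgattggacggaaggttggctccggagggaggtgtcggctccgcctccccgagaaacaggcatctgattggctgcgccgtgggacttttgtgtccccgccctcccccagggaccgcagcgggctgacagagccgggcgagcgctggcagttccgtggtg
In Ddit4 ACGTG begins at position -187 and GCGTG at -115 relative to the start, and Sesn2 has neither in this window. No matches overlap each other in these genes. At least 1 of these cores is found in 38.6% of 32851 such windows, ACGTG in 16.6% and GCGTG in 28.2%. Eif4ebp2 holds both cores and Tsc1 and Tsc2 hold GCGTG. The element TGATGNAA, bound by ATF4 with C/EBP partners, was searched on both strands and is in 3.45% of the windows but in none of these 5 genes. A match is only a description of the letters. Eif4ebp1 is named only.

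Ddit4 was the most variable of the 14 probe sets. The probe set 1428306_at read 8.86, 9.86 and 9.88 in CD95L-T4 polysomal arrays, against 9.49, 8.70, 8.97 and 8.0 in control polysomal arrays. CD95L-T4 replicates 2 and 3 were above every control array, and replicate 1 lay inside the control range. The means were 9.53 ± 0.58 (SD, n = 3) in CD95L-T4 and 8.79 ± 0.62 (SD, n = 4) in control polysomal RNA.

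In total RNA the order of the means was the opposite. Ddit4 read 8.51, 7.02, 7.05 and 7.12 in CD95L-T4 total arrays, against 7.17, 8.78, 8.37 and 8.11 in control total arrays. In CD95L-T4 cultures 3 arrays lay close together below all controls and replicate 1 lay among the higher controls, while control replicate 1 lay near the low CD95L-T4 arrays. The groups therefore overlapped. Their means were 7.42 ± 0.72 in CD95L-T4 and 8.11 ± 0.68 in control total RNA (SD, n = 4 each).

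None of the Ddit4 treatment effects passed the threshold. In polysomal RNA the difference was 0.74 ± 0.41, with a 95% interval of -0.13 to 1.62 and an adjusted p of 0.567 in limma, and the two-sided exact permutation test over the 35 splits of the arrays gave p = 0.171. For total RNA it was -0.68 ± 0.38, with an interval of -1.49 to 0.13 and an adjusted p of 0.997, and the exact test over 70 splits gave p = 0.257. The smallest p that either exact test can give is 0.0286. The interaction was 1.43 ± 0.56, with an interval of 0.24 to 2.61, an unadjusted limma p of 0.0216 and an adjusted p of 0.897.

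Single arrays weighed heavily on these values. Without CD95L-T4 polysomal replicate 1 the polysomal difference of Ddit4 was 1.08 (adjusted p = 0.809), and without control polysomal replicate 4 it was 0.48 (adjusted p = 0.7). It was 0.58 ± 0.49 (adjusted p = 0.554) without CD95L-T4 polysomal replicate 2, whose poly-A controls stood apart. Without CD95L-T4 total replicate 1 the total RNA difference was -1.04 (adjusted p = 0.556), and without control total replicate 2 it was -0.46 (adjusted p = 0.999). No such omission brought a Ddit4 treatment effect past the threshold. The spread of Ddit4 within groups, a residual SD of 0.661, ranked 15 of 22626 probe sets.

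In total RNA the poly-A controls ranked the arrays in part as Ddit4 did. Their mean was 8.59, 7.74, 7.88 and 7.41 in CD95L-T4 total arrays and 7.46, 8.09, 7.96 and 7.98 in control total arrays. The highest array of each culture was the same for both measures, CD95L-T4 replicate 1 and control replicate 2, and the lowest control array was also the same, replicate 1. The Eif4ebp1 probe set 1434976_x_at, the Eif4ebp2 probe set 1417084_at and both Sesn2 probe sets were also highest in CD95L-T4 replicate 1 and control replicate 2. Other members went the other way. The Eif4ebp2 probe sets 1436158_at, 1455575_at and 1456613_at were lowest of their groups in these arrays. So was Tsc2, where control replicate 2 was level with control replicate 4. In polysomal RNA the controls were 8.18, 9.86 and 8.32 in CD95L-T4 and 8.92, 8.45, 9.03 and 8.60 in control arrays, and CD95L-T4 replicate 3, high in Ddit4, was not high in them. Their part in the Ddit4 values was not tested.

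**Figure D4:**
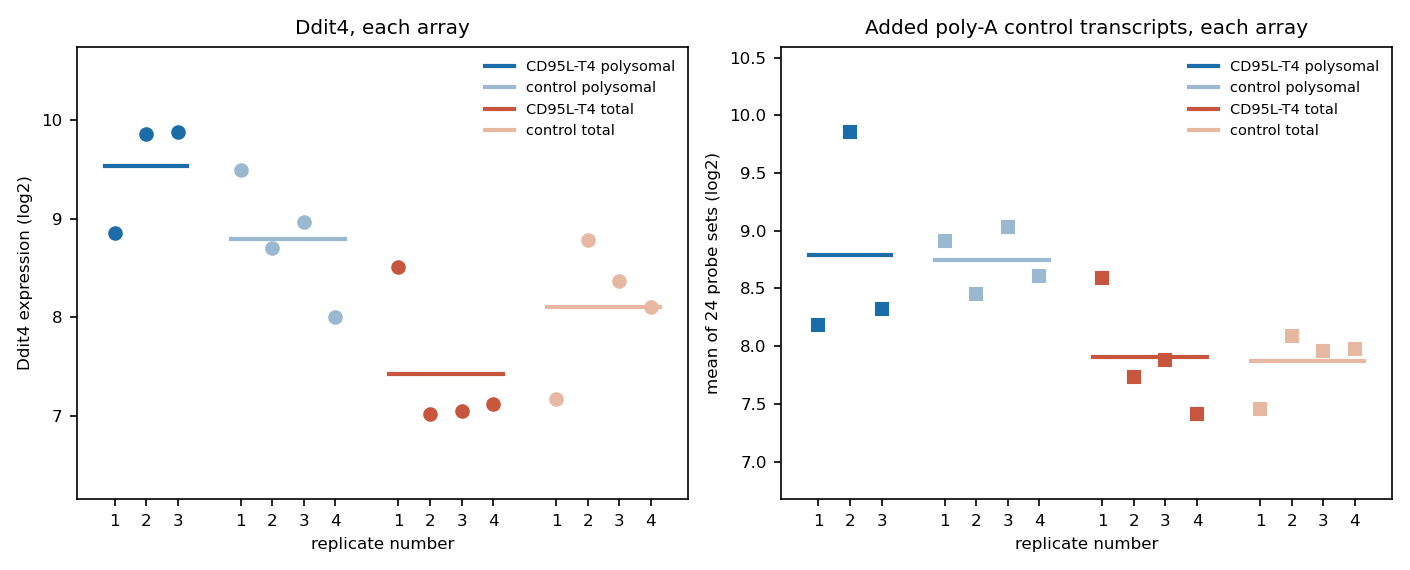
Log2 expression of Ddit4 on each of the 15 arrays and, beside it, the mean of 24 poly-A control probe sets on the same arrays, with the group means as lines. In total RNA CD95L-T4 replicate 1 (8.51) and control replicate 2 (8.78) are the highest of their groups for Ddit4 and also for the controls.

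Between fractions Ddit4 was higher in polysomal RNA of CD95L-T4 cultures, by 2.11 ± 0.41, a 4.31-fold difference (adjusted p = 0.000319). All 3 polysomal arrays lay above all 4 total arrays, the closest being 8.86 and 8.51, and the exact permutation test gave p = 0.0571. In control cultures the difference was 0.68 ± 0.38 (adjusted p = 0.142), the arrays overlapped, and the exact test gave p = 0.229. The CD95L-T4 value was at the 99.97th percentile of all probe sets and the control value at the 90.1st. That the fraction difference was called in one culture and not in the other does not show that they differed, since that comparison is the interaction, with its adjusted p of 0.897. Without CD95L-T4 polysomal replicate 2 the CD95L-T4 fraction difference was 1.95 ± 0.49 (adjusted p = 0.00334) and the interaction was 1.26 ± 0.63 (adjusted p = 0.351).

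Sesn2 encodes sestrin 2, and its 2 probe sets, which cite the same source sequence, differed in the fraction comparison. The dimmer, 1451599_at, read 7.24, 7.22 and 7.42 in CD95L-T4 polysomal arrays, against 6.98, 6.50, 6.90 and 6.72 in CD95L-T4 total arrays. In control cultures it read 7.36, 7.24, 7.47 and 7.19 in polysomal and 6.71, 7.18, 6.99 and 6.93 in total arrays. Polysomal arrays lay above total arrays in each culture, but in the controls the closest arrays were at 7.19 and 7.18. The difference was 0.52 ± 0.12 in CD95L-T4 (adjusted p = 0.00148) and 0.36 ± 0.11 in control cultures (adjusted p = 0.0105).

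The brighter Sesn2 probe set, 1425139_at, read 8.10 to 8.37 over all 15 arrays and differed between fractions by 0.04 ± 0.08 in CD95L-T4 (adjusted p = 0.749) and -0.08 ± 0.07 in control cultures (adjusted p = 0.414). CD95L-T4 minus control was 0.12 ± 0.08 in polysomal RNA (adjusted p = 0.643) and 0.01 ± 0.07 in total RNA (adjusted p = 0.997) for this probe set. For 1451599_at it was -0.02 ± 0.12 in polysomal (adjusted p = 0.969) and -0.18 ± 0.11 in total RNA (adjusted p = 0.997). The spread of 1425139_at within groups was the smallest of the 14, with a residual SD of 0.0881.

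The rest of the pathway was read from lists of genes, each gene taken by its brightest probe set. Other brakes on mTORC1 had 13 of 23 listed genes measured, the mTORC1 complex with its activators 18 of 24, and the cap-binding complex with the translational outputs of mTORC1 18 of 20. In the treatment comparisons and the interaction limma called 0 genes of any of these lists. At an unadjusted p under 0.05 there were 0 of the 13 other brakes in any of these comparisons, 6 activators in polysomal RNA, 1 in total RNA and 1 in the interaction, and 1 gene of the cap-binding list in polysomal RNA, 1 in total RNA and 0 in the interaction. The list of activators held 18 genes, as did the cap-binding list, and the shares over all probe sets were 9.65% in polysomal RNA, 3.74% in total RNA and 4.38% in the interaction. The smallest p-values in polysomal RNA are named next, with log2 differences in brackets. Of the other brakes, they belonged to Nprl2 (0.17), a GATOR1 subunit, Sesn3 (0.15), a further sestrin, and Deptor (0.20), an mTOR-binding inhibitor. Among activators they belonged to Lamtor1 (-0.29, adjusted p = 0.473), the lysosomal anchor of the Ragulator complex, and to Seh1l (0.25) and Sec13 (0.34), both of GATOR2. In the cap-binding list they belonged to Eif4enif1 (0.21), the eIF4E transporter, Mknk1 (0.18), an eIF4E kinase, and Eif4g3 (0.17), an eIF4G paralogue.

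In total RNA the smallest p-values are given likewise, with log2 differences in brackets. Those of the other brakes belonged to Kptn (0.10), a KICSTOR subunit, Grb10 (0.09), an adaptor phosphorylated by mTORC1, and Pdcd4 (-0.12), an eIF4A inhibitor. Among activators they were Lamtor5 (-0.29), Lamtor1 (-0.17) and Rragd (-0.26), a Rag GTPase, and in the cap-binding list Eif4e2 (-0.23), Eif4e3 (0.18) and Mknk1 (0.12). None of these passed the adjusted threshold.

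Between fractions the pathway split by gene. Over all probe sets 26.7% were called higher and 24.6% lower in polysomal RNA of CD95L-T4 cultures, and 29.8% higher and 26.3% lower in control cultures. Of the 13 other brakes, 7 were higher and 1 was lower in polysomal RNA of CD95L-T4 cultures, and the same numbers held in control cultures, with medians of 0.23 and 0.20. Ddit4l, a Ddit4 paralogue, differed by 0.64 in CD95L-T4 and 0.61 in control cultures, and Stk11, the kinase LKB1 upstream of AMPK, by 0.53 and 0.65. Sesn3 was lower, by -0.23 in CD95L-T4 and -0.41 in control cultures.

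Of the 18 genes of the mTORC1 complex and its activators, 11 were higher and 2 lower in polysomal RNA of CD95L-T4 cultures, and 10 were higher and 4 lower in control cultures. The small Ragulator subunits led, Lamtor2 at 1.25 in CD95L-T4 and 1.39 in control cultures, Lamtor4 at 1.13 and 1.38 and Lamtor5 at 1.26 and 1.14. Mtor, the kinase itself, was lower, at -0.49 in CD95L-T4 and -0.56 in control cultures, as was Pdpk1, which phosphorylates Akt, at -0.30 and -0.51.

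The cap-binding list had 5 genes higher and 6 lower in CD95L-T4 cultures and 5 higher and 8 lower in control cultures, with medians of 0.05 and -0.04. Eif4e2, a cap-binding paralogue that represses translation, was higher by 1.27 in CD95L-T4 and 1.10 in control cultures, and Rps6, a ribosomal protein, by 0.82 and 0.75. Eif4g3 was lower, at -1.02 in CD95L-T4 and -1.09 in control cultures, as was Larp1, a repressor of ribosomal protein mRNAs, at -0.97 and -1.03. Eif4e, the direct partner of both 4E-binding proteins, was looked up after its list had been read and is no gene of the naming rule. It differed by 0.26 ± 0.07 in CD95L-T4 (adjusted p = 0.00301) and 0.37 ± 0.06 in control cultures (adjusted p = 5.85e-05).

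Genes of the pathways known to induce Ddit4 or Sesn2 were also read. Of 15 ATF4 and amino acid stress targets, 14 hypoxia targets, 12 glucocorticoid receptor targets and 12 p53 targets, limma called 0 in either treatment comparison or in the interaction. At an unadjusted p under 0.05 there were, in polysomal RNA, 4, 1, 2 and 1 genes of these lists in the same order, in total RNA 1, 0, 1 and 5, and 0 of each in the interaction. Over all probe sets the shares were 9.65% in polysomal RNA, 3.74% in total RNA and 4.38% in the interaction. The differences of these 5 p53 targets in total RNA lay between -0.28 and -0.20, and none passed the adjusted threshold. Of these 5, 1 was dim, at the 4.9th percentile of all probe sets. Another was also the glucocorticoid receptor target counted in total RNA, so that this gene stands in 2 lists. As a description over 15 arrays, deviations of Ddit4 from the mean of its fraction correlated with the mean deviation of the list at r = -0.39 for hypoxia, 0.44 for p53, -0.12 for ATF4 and 0.09 for glucocorticoid receptor targets. Lists of cell type markers were read beside them. Microglial (-0.50) and endothelial markers (-0.51), none of which lay above the median of all probe sets, gave values larger in size. Those of neural stem cell (-0.12), neuron (-0.25), astrocyte (-0.30), oligodendrocyte (-0.16) and fibroblast markers (0.01) were smaller in size than for hypoxia and p53 targets. The arrays share their normalisation, and no p is attached to these values.

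The genes whose profiles over the 15 arrays were most like those of the members were sought among 6682 genes by Pearson correlation of log2 values. For the 4E-binding proteins and the TSC genes these correlations rest largely on the fraction difference that the arrays share. Each gene was taken by its brightest probe set alone. For Eif4ebp1 this was 1434976_x_at, and for Tsc1 it was 1455252_at, which opposes 1422043_at between fractions. Eif4ebp1 was closest to Cdpf1 (r = 0.996), Med8 (0.995) and Mea1 (0.994), and Eif4ebp2 to Arc (0.987), Dnajc27 (0.981) and Pcgf6 (0.980). Tsc1 was closest to Ylpm1 (0.954), Nav2 (0.951) and Atp11a (0.951), and Tsc2 to Utp20 (0.977), Bms1 (0.975) and Prkdc (0.975). Sesn2, by its brighter probe set, had no close match, with Ddx39a (0.730), Ftsj1 (0.729) and Actr8 (0.726) at the top.

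Ddit4 was closest to Ccdc71 (0.950), Alkbh5 (0.930) and Mapk8ip1 (0.927). With the mean of each fraction removed, the 5 closest were Ccdc71 (r = 0.945), Alkbh5 (0.872), an RNA demethylase, Pola1 (0.870), a DNA polymerase subunit, Lmnb1 (0.869), a nuclear lamin, and Ube2s (0.861), a ubiquitin-conjugating enzyme of mitosis. In polysomal RNA Ccdc71 read 8.72, 9.31 and 9.36 in CD95L-T4 and 9.14, 8.74, 8.81 and 8.41 in control arrays, which is also the order of the CD95L-T4 arrays for Ddit4. In total RNA it read 7.93, 7.16, 7.51 and 7.32 in CD95L-T4 and 7.13, 8.47, 7.93 and 7.69 in control arrays. There CD95L-T4 replicate 1 and control replicate 2 were the highest of their groups, as for Ddit4. Since Ccdc71 was picked by its correlation with Ddit4 over these same arrays, the shared order follows from that choice and is no further evidence. None of these genes passed the threshold for treatment. Lmnb1 came nearest in polysomal RNA, at 1.03 ± 0.28 (adjusted p = 0.466).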

How the data were processed

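Expression was measured on 15 Affymetrix arrays. The values used are log2 intensities, deposited by the authors with 2 decimals after normalisation, by a method and software not given in the sources used here. Groups were read from the sample titles, and every value column belonged to a sample. Of 22690 probe sets, 22626 were tested after 64 controls had been removed. The platform annotation names 1 gene for 20380 of them, several for 691 and none for 1555, and 12369 of the 12393 genes were found in the RefSeq gene table (GRCm38.p6). The labels name no genome build, so no gene coordinates are given apart from the RefSeq promoter windows, which 5 of the 6 genes had.

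limma 3.58.1 under R 4.3.3 was fitted to all 15 arrays with 1 mean per group and moderated variances (prior degrees of freedom 5.78), two-sided, and p-values were adjusted by Benjamini-Hochberg over the whole table. Exact permutation tests were added for Ddit4. The steps were tested on simulated data. The number of arrays limits the precision, since arrays carry no read depth. The p-values measure the spread between these arrays.

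The members and lists were chosen with earlier results of these data known. The text names every probe set of the 6 genes. For other brakes, activators and cap-binding genes it names the 3 with the smallest p in a treatment comparison, since none passed. It also names genes among the 3 largest rises and falls of these lists between fractions. The other lists are given without gene names. For likeness it names the 3 genes with the highest correlation among genes brighter than the median probe set, and 5 more for Ddit4 within fractions. Alternatives were other scalings, filters on dim probe sets, other variance models, fits to the compared groups alone, averaging the probe sets of each gene, a replicate block and leaving out each array in turn. Arrays with equal replicate numbers were not treated as pairs in the main fit. Their deviations from the group means correlated at -0.23 to 0.20. Arrays with unlike numbers were not compared in this way, so these values cannot decide whether the numbers mark pairs.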

Additional observations from a re-analysis of the deposited data

Results flagged for a closer look

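In 4 of the 42 groups of 4 arrays examined, 1 array lay far from the others of its group by Dixon's criterion at the 95% level, and chance flags about 1 group in 20. Ddit4 read 8.51 in CD95L-T4 total replicate 1, against 7.02 to 7.12 in the other CD95L-T4 total arrays. The Eif4ebp2 probe set 1417084_at read 7.47 in the same array, against 6.51 to 6.65 in the others. Tsc2 read 8.70 in CD95L-T4 total replicate 2, against 8.34 to 8.39 in the others. The Eif4ebp1 probe set 1417563_at read 6.40 in control total replicate 1, where the other 3 control total arrays all read 6.31. The last is a small step in a very narrow group, whose SD was 0.045.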

How the results depend on the processing

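Of the 70 results of a probe set in a comparison, 64 stayed on their side of the threshold under each alternative run. In total RNA and in the interaction 0 of the 14 probe sets were called under each alternative. In polysomal RNA leaving out 1 array gave 0 to 2 calls, the 2 being the Eif4ebp1 probe sets without CD95L-T4 polysomal replicate 2, and 1386 of all probe sets were then called, against 0 with all arrays, and 2 in the interaction, against 0. Where all 14 were tested, calls between fractions ranged from 9 to 12 in CD95L-T4 cultures and were 10 in control cultures. Without the dimmest 50% of probe sets only 10 of the 14 were tested, of which 9 and 8 were called. Calls lost under some alternative were those of both Tsc1 probe sets and of the Eif4ebp2 probe set 1437733_at in CD95L-T4 cultures, and 1455575_at of Eif4ebp2 gained one there without CD95L-T4 total replicate 1. With the mean of its probe sets, the Tsc1 difference between fractions in CD95L-T4 cultures was 0.0442 in place of -0.28, since the probe sets oppose each other. For Ddit4 the effect ranged over 0.48 to 1.08 in polysomal RNA (exact p 0.133 to 0.4), -1.04 to -0.46 in total RNA (exact p 0.0571 to 0.371) and 1.16 to 1.79 in the interaction. With a polysomal array left out, so few arrays remain that the exact test in polysomal RNA cannot give a p under 0.05. Its range there therefore cannot show that an effect is absent. A replicate block over all arrays gave 0 calls among the 14 for treatment in either fraction and for the interaction, and 11 in CD95L-T4 and 10 in control cultures between fractions. The sample titles give equal numbers with no word on pairing. Under the block Ddit4 stood at 0.62 and 0.48 in polysomal RNA (block over all arrays and within the fraction) and Eif4ebp1 1417562_at at -0.28.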

Other observations

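Targets of pathways known to induce Ddit4 or Sesn2 were also read between fractions, where 26.7% of all probe sets were called higher and 24.6% lower in polysomal RNA of CD95L-T4 cultures, and 29.8% higher and 26.3% lower in control cultures. Of 12 glucocorticoid receptor targets, 9 were higher and 0 lower in polysomal RNA of CD95L-T4 cultures, and 8 were higher and 1 lower in control cultures, with medians of 0.55 and 0.61. Among 12 p53 targets 8 were higher and 0 lower in CD95L-T4 cultures, and 8 were higher and 1 lower in control cultures, with medians of 0.45 and 0.43. ATF4 targets were divided evenly, 7 higher and 7 lower of 15 in each culture. Hypoxia targets gave 3 higher and 4 lower of 14 in CD95L-T4 and 4 higher and 4 lower in control cultures. The signal of the actin probe sets at the 3′ end exceeded that at the 5′ end by 0.59, 0.68 and 1.03 in CD95L-T4 polysomal arrays and by 0.74 to 0.81 in control polysomal arrays, against 0.32 to 0.46 in CD95L-T4 total and 0.28 to 0.57 in control total arrays. This 3′ to 5′ difference was therefore larger in every polysomal array than in every total array, the closest being 0.59 and 0.57. Whether it reflects RNA integrity was not tested, and neither was its part in the fraction differences.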
